A study of Mus musculus with 15 samples.

Results

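The 10 genes described here encode core proteins of DNA replication: the helicase subunits Mcm2 to Mcm7, the sliding clamp Pcna, its partner Pclaf, and the nucleotide synthesis enzymes Rrm2 and Tyms. They were taken by name from the 19938 genes that have a probe set of their own on the array, and all 10 were found. A probe set was used where the platform annotation gives it a single gene symbol, and the brightest over all 15 arrays stood for a gene with several, which applied to Pcna and Pclaf with 2 probe sets each. The arrays measured mouse kidney in 4 groups. From the metanephric mesenchyme (MM), 4 single cells, numbered 14, 15, 16 and 19, were picked at embryonic day 11.5 from mice of the line Tg(Crym-EGFP)GF82Gsat, in which regulatory sequence of Crym drives the green fluorescent reporter; their sex is unknown. Single juxtaglomerular cells (JG, 5 cells, numbered 4 to 8) came from adult male Ren1c-YFP mice, in which the renin locus drives a yellow reporter, although the dissection note of these cells names a Ren1d GFP line. Cortex of adult male Ren1c-YFP mice, a mixture of cell types, gave 3 libraries (A, B and C) that were diluted and amplified over 32 rounds like the single cells, and 3 libraries labelled in the standard way with 1 round. The strain is unspecified, no sample was pooled, and no animal is named, so each group of cells was treated as 1 sample and its comparisons carry no test.

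Before a cell divides it copies its DNA once, during S phase. The MCM proteins form a ring of 6 different subunits that is loaded on DNA before S phase and then unwinds it. PCNA encircles the new duplex and tethers the polymerases, and PCLAF is a small protein that binds PCNA. RRM2 is the regulatory subunit of ribonucleotide reductase, which makes deoxyribonucleotides, and TYMS makes thymidylate. Most of these genes are known targets of E2F transcription factors, which drive the entry into S phase. In the embryonic kidney the mesenchyme is a growing progenitor tissue, whereas most cells of the adult kidney seldom divide.

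The promoters of these genes were searched for the E2F site in the letters TTTGGCGC, TTTCGCGC, TTTCCCGC and TTTGCCGC, on both strands. The window ran from 250 bases before to 50 after the start of the gene (RefSeq sequences, build GRCm38.p6). Whether a match goes with the levels in the cells was not tested. Of the 10 genes, 9 had a promoter in the table and 5 of these held a match (Mcm3, Mcm5, Mcm6, Mcm7 and Pclaf), as did 2.26% of all 32851 promoters. Mcm2, Pcna, Rrm2 and Tyms held none. Mcm5 and Mcm6 each hold overlapping matches on opposite strands that join to TTTCGCGCCAAA, which Mcm6 carries as its reverse complement, and only 4 promoters in the table have this string, the others being those of Mycn and Msh3. The matches of Mcm3 lie after the start, and that of Pclaf spans it. Of 77 other replication genes with a promoter in the table, 25 held a match. The 3 windows below show the matches before the start in capitals, at chr8:75109309-75109408 (plus strand), chr1:128359745-128359844 (minus strand) and chr5:138171984-138172083 (minus strand).
Mcm5: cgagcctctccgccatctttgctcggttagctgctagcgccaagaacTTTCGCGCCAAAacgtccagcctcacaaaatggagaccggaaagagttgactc
Mcm6: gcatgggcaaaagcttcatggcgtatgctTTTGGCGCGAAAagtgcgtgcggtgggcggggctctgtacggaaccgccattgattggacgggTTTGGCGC
Mcm7: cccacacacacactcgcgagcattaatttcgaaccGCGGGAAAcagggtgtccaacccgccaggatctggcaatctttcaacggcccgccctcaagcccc

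Pcna, at chr2:132253211-132253310 (minus strand), held none of the E2F letters in its window, and Pclaf, at chr9:65890213-65890312 (plus strand), held none ahead of its start. They are shown because their values separated the cells most clearly, with the CCAAT box (CCAAT, or ATTGG on the other strand) and the GC box (GGGCGG or CCGCCC) in capitals. These shorter motifs are common, the CCAAT box being present in 37.4% and the GC box in 35.7% of all promoters, and in 8 and 7 of the 9 genes. A match is a stretch of letters and not a measured binding site.
Pcna: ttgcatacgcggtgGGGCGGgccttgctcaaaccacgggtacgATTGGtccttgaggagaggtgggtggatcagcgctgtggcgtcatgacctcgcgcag
Pclaf: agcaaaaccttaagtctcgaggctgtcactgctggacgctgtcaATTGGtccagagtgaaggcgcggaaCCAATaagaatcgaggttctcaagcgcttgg

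All levels are the deposited probe set signals on the log2 scale. A gene is called above background on an array where its signal exceeds the 99th percentile of 1210 probe sets for olfactory and vomeronasal receptors on that array, genes best known from the sensory cells of the nose. MM cells had limits from 7.13 to 7.56, and JG cells from 7.55 to 7.92. Limits were lower in cortex, from 6.18 to 6.30 after dilution and from 6.30 to 6.51 after standard labelling, so a signal between these ranges counts as background in a cell and not in cortex. Arrays of one group correlated across probe sets with r from 0.748 to 0.839 for cells and from 0.989 to 0.995 for cortex. Of 4 measured markers of renin cells (Mgp, Crip1, Rgs5 and Gja4), 4, 2, 4, 4 and 3 were above background in JG cells 4 to 8, and Rgs5 and Gja4 were under the limit in JG cell 5. That cell was above it for the proximal tubule genes Miox (12.63) and Slc22a6 (8.74), and MM cell 14 for the endothelial gene Emcn (11.77); the part of these in the results was not tested. Of 9 cap mesenchyme markers, 3 to 5 were above background in each MM cell and 1 to 6 in each JG cell, so this list did not set the groups apart. Six2, a regulator of nephron progenitors, stood out in MM cell 16 alone (10.13), and the stromal progenitor gene Foxd1 in MM cells 14 (9.03) and 19 (11.33). Of the 4 stromal progenitor markers, 2, 1, 0 and 1 were above background in MM cells 14, 15, 16 and 19 and 0 in JG cells, and their summed log2 signal was 25.2 to 29.8 in MM cells against 25.2 to 26.5 in JG cells.

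Most of the replication genes were high in MM cells 14 and 19 and some in cell 15. They were near or under background in cell 16 and in the JG cells, apart from Pclaf in MM cell 16 and Pcna in JG cell 6. Over the 4 MM cells, 26 of the 40 values of the 10 genes (65.0%) were above background, against 17.1% of the values of all genes in these cells. Over the 5 JG cells, 4 of the 50 values (8.0%) were, against 10.2% of the values of all genes. Cell by cell, 10, 5, 2 and 9 of the 10 genes were above background in MM cells 14, 15, 16 and 19, where 20.7%, 15.8%, 10.9% and 21.1% of all genes were. In JG cells 4 to 8 it was 1, 0, 2, 0 and 1 of the 10, where 9.09%, 6.87%, 10.1%, 10.7% and 14.2% of all genes were. In MM cell 19, Mcm3, Mcm5 and Mcm7 exceeded the limit by only 0.75, 0.60 and 0.43, and Mcm6 was under it. The limit of that cell (7.13) lies below those of all JG cells. Mcm5 thus counted as above background there at 7.73, and as background in JG cell 5 at 7.75. Mcm3, Rrm2 and Tyms, 3 of the 10, were above background in MM cells 14 and 19 and in no other cell, as were 1.85% of all genes. Without MM cells 14 and 19 the MM share was 35.0%. MM cells 14 and 19 were also the cells with the most genes above background, and those with Foxd1, 1 of 4 stromal progenitor markers. Of that list, Meis1 was high in MM cell 15 (11.00), barely above the limit in cell 14 (7.16) and under it in cell 19 (6.78). Tbx18 and Pdgfra were under it in all MM cells. The part of Foxd1, or of the number of genes above background, in this pattern was not tested.

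**Figure D1:**
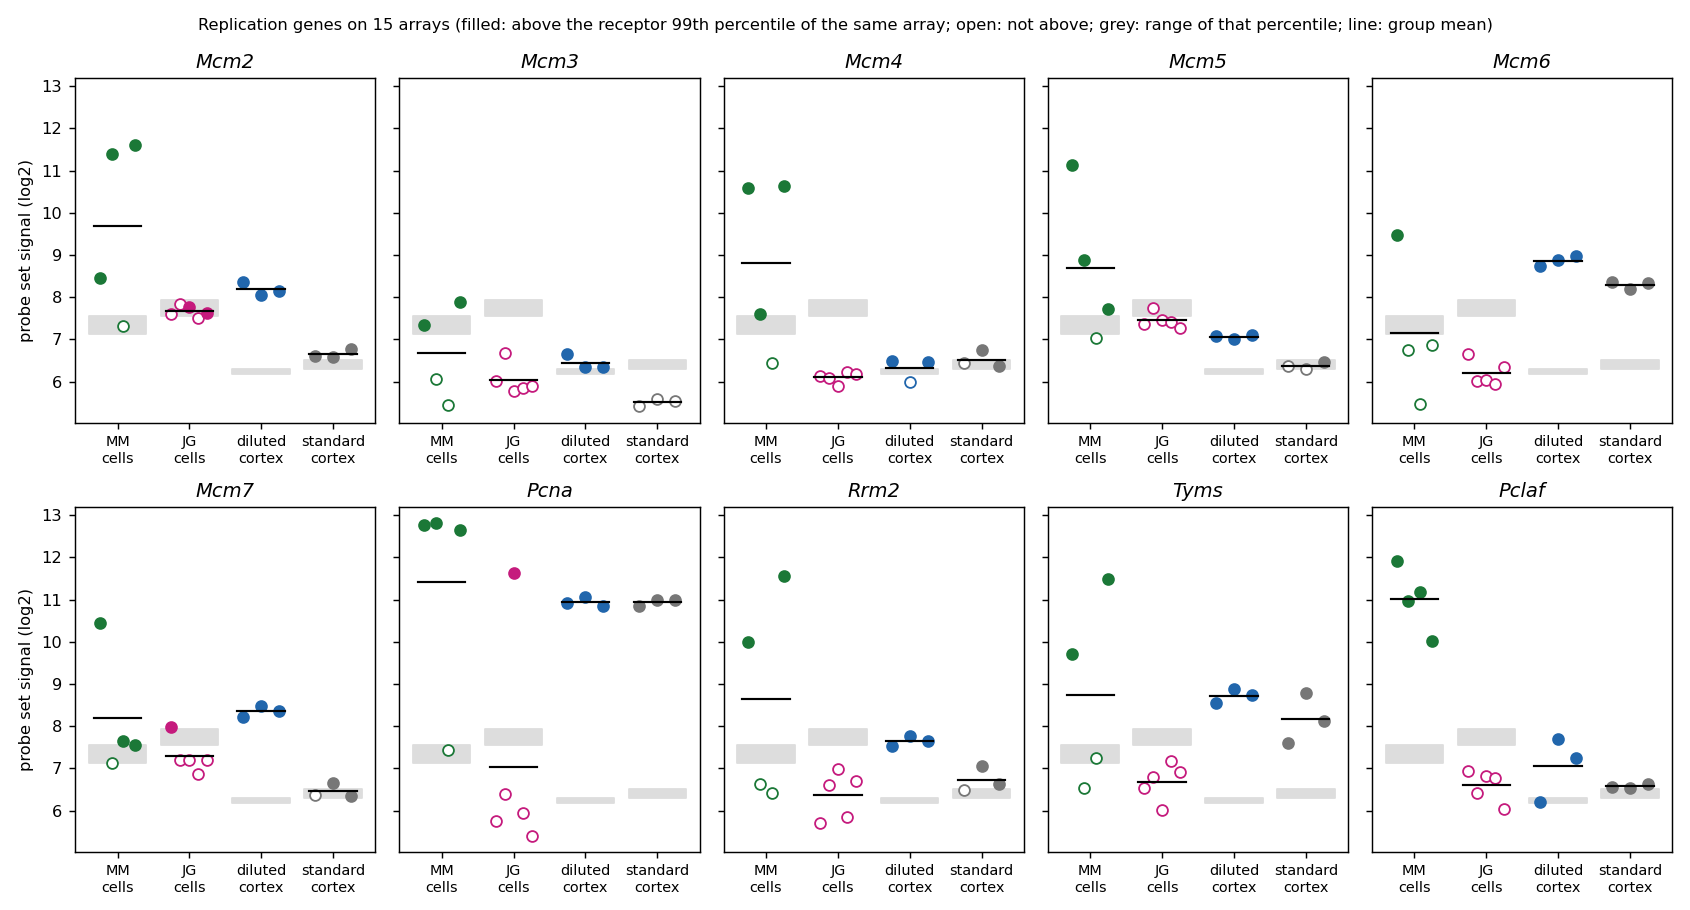
Probe set signals (log2, vertical axes) of the 10 replication genes on the 15 arrays, by group (horizontal axes). Each point is 1 cell or library, filled where it exceeds the background limit of its own array; grey bands give the range of that limit in the group and lines the group mean. High points among MM cells are mostly those of cells 14 and 19, and for some genes that of cell 15. JG cells lie near or under the band except Pcna at 11.64 in JG cell 6.

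The MCM subunits were not high as a set in each cell. Mcm2 measured 8.46, 11.39, 7.31 and 11.60 in MM cells 14, 15, 16 and 19, and 7.60, 7.83, 7.76, 7.51 and 7.63 in JG cells 4 to 8. Cells 15 and 19 were high and cell 14 intermediate, while MM cell 16 lay under all JG cells. The JG values sat at their arrays' limit: those of cells 6 and 8 exceeded it by 0.03 and 0.08. The MM mean was 9.69 ± 2.14 (SD over 4 cells) and the JG mean 7.67 ± 0.13 (SD over 5 cells), a difference of 2.02.

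Mcm4 measured 10.60, 7.61, 6.44 and 10.64 in the same order of MM cells and 5.90 to 6.23 in JG cells. Here all MM cells lay above all JG cells, though MM cell 16 stood at -1.12 relative to its array's limit, and the difference of means was 2.71. Mcm5, the subunit at the ring's opening beside Mcm2, measured 11.14, 8.87, 7.04 and 7.73 in MM cells 14, 15, 16 and 19 and 7.28 to 7.75 in JG cells. It was high in cell 14, intermediate in cell 15 and close to the JG range in the others, with a difference of 1.24 that fell to 0.43 without cell 14.

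Mcm6 and Mcm7 were high in cell 14 and near the limit or under it in the other MM cells. Mcm6 was the only gene of the 10 above background in cell 14 and in no other cell, a pattern of 3.12% of all genes. Mcm6 measured 9.48 there and 6.75, 5.47 and 6.88 in MM cells 15, 16 and 19, against 5.95 to 6.65 in JG cells. Mcm7 measured 10.45 in cell 14 and 7.12, 7.64 and 7.56 in the others, against 6.87 to 7.98 in JG cells, of which cell 4 was the highest and exceeded its limit by 0.25. MM cells 16 and 19 were also above their limits for Mcm7, by less than the spread over MM cells. The differences of means, 0.94 and 0.91, fell to 0.16 and 0.15 without MM cell 14. Mcm3 stayed low throughout, at 7.34, 6.06, 5.46 and 7.88 in MM cells 14, 15, 16 and 19 and 5.77 to 6.68 in JG cells. Its values in cells 14 and 19 exceeded the limit by 0.19 and 0.75. The difference of means was 0.64, and 0.24 without MM cell 19 and 1.05 without cell 16. The MM and JG groups overlapped for Mcm2, Mcm3, Mcm5, Mcm6 and Mcm7.

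Pcna separated the cells into high and low ones with little between. It measured 12.78, 12.81 and 12.64 in MM cells 14, 15 and 19 but 7.44 in MM cell 16, and 11.64 in JG cell 6 but 5.75, 6.39, 5.94 and 5.40 in JG cells 4, 5, 7 and 8. The groups thus overlap: JG cell 6 exceeded MM cell 16 by several log2 units. The difference of means was 4.39, and 5.55 without JG cell 6 (11.42 ± 2.65, SD over 4 cells, against 7.02 ± 2.61, SD over 5 cells). The second Pcna probe set gave the same picture, lying within 0.34 of the first on every array.

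Pclaf was the only gene of the 10 above background in all 4 MM cells. It measured 11.91, 10.97, 11.17 and 10.03 in MM cells 14, 15, 16 and 19 and 6.94, 6.43, 6.83, 6.78 and 6.04 in JG cells 4 to 8, without overlap and with a difference of 4.42. Its second probe set told a different story for MM cell 16, where it measured 6.62 and was under the limit. On that probe set MM cells 14, 15 and 19 measured 9.68, 7.50 and 8.46, the JG cells 4.69 to 6.24, and the difference was 2.41. The 2 probe sets of Pclaf list the same RefSeq transcript and lay 1.57 to 4.55 apart in MM cells, against 0.13 to 2.14 in JG cells and 1.10 to 1.46 in cortex, so the level of Pclaf in MM cell 16 depends on the probe set.

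**Figure D2:**
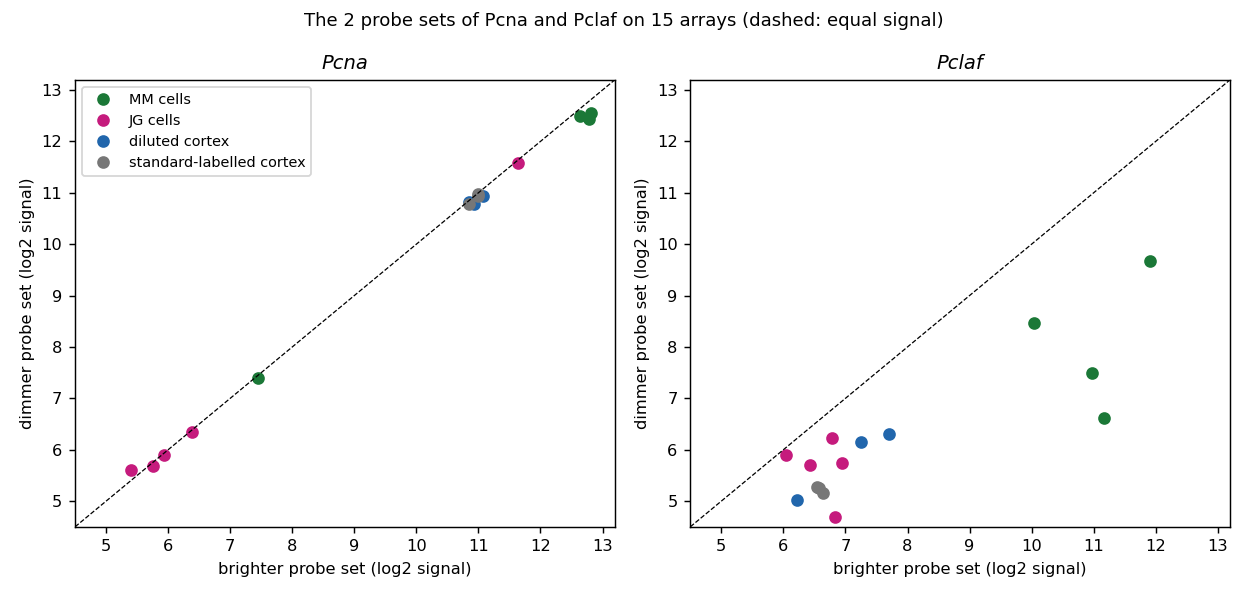
Signal (log2) of the dimmer probe set (vertical) against the brighter one (horizontal) for Pcna and Pclaf, 1 point per array, with the line of equal signal dashed. The Pcna points follow the line within 0.34, whereas the Pclaf points of MM cells fall up to 4.55 below it, MM cell 16 being the farthest.

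The nucleotide synthesis genes Rrm2 and Tyms moved together. Rrm2 measured 10.01 and 11.56 in MM cells 14 and 19, 6.64 and 6.42 in cells 15 and 16, and 5.71 to 6.996 in JG cells. Tyms measured 9.70 and 11.49 in MM cells 14 and 19, 6.53 and 7.24 in cells 15 and 16, and 6.03 to 7.18 in JG cells. Cells 14 and 19 were high for both genes, and the other MM cells lay inside the JG range, or just above it for Tyms in cell 16. The differences of means were 2.28 for Rrm2 (8.66 ± 2.54 against 6.37 ± 0.57) and 2.05 for Tyms (8.74 ± 2.28 against 6.69 ± 0.44; SD over 4 MM and 5 JG cells). Without MM cell 19 they fell to 1.32 and 1.14. Over the 9 cells Rrm2 and Tyms had the highest pairwise Pearson r among the 10 genes, 0.94, where the 45 pairs ranged from -0.03 (Mcm2 with Mcm7) to 0.94 around a median of 0.60. These points share protocol and background, and without MM cell 14 the median was 0.48.

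Set over all 10 genes, the MM mean exceeded the JG mean in each, by 0.64 (Mcm3) to 4.42 (Pclaf) with a median of 2.04, where the median over all genes was -0.19 and that of the receptors -0.21. A difference of at least 1 log2 unit was reached by 7 of the 10 genes, against 8.83% of all genes. Groups did not overlap, with MM higher, for 2 of the 10 genes (Mcm4 and Pclaf), against 1.13% of all genes. Leaving out MM cell 16 raised that count to 5, and leaving out MM cell 15 or JG cell 6 raised it to 3. For any set of genes, leaving out a cell can only keep or raise such a count. The share of all genes without these cells is not given here, so the rise says nothing particular of these genes. Leaving out 1 MM cell at a time kept the mean of each of the 10 genes higher in MM cells, with a median of 1.35 without cell 19 and 2.68 without cell 16. Without both MM cells 14 and 19 the median was 0.35, and Mcm3 turned to -0.29 and Mcm6 to -0.09. The count past 1 log2 unit was then 3 of 10, against 5.77% of all genes.

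The wider replication machinery was described over 92 measured genes of a list of 95. Of these, 46, 19, 9 and 34 were above background in MM cells 14, 15, 16 and 19, and 6, 6, 9, 8 and 13 in JG cells 4 to 8. Of all genes, 20.7%, 15.8%, 10.9% and 21.1% were above it in the same MM cells and 9.09%, 6.87%, 10.1%, 10.7% and 14.2% in the JG cells, so the list lay near the share of all genes in MM cell 16 and in the JG cells. MM minus JG reached 1 log2 unit for 34 of the 92 genes and -1 for 1, against 8.83% and 1.16% of all genes, with a median of 0.54. Above background in at least 2 MM cells and in 0 JG cells were 18 of the 92 genes, and 6 of the 10 core genes (Mcm3, Mcm4, Mcm5, Rrm2, Tyms and Pclaf), against 5.38% of all genes.

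By role, the licensing factor Cdt1, which loads the MCM ring, measured 8.20, 11.75, 7.17 and 10.63 in MM cells 14, 15, 16 and 19, and 6.70 to 6.99 in JG cells. Its inhibitor Gmnn (geminin) measured 9.52, 11.34, 5.28 and 5.50 in the same MM cells, so cell 15 was high in both, and cell 19 in Cdt1 only. The origin recognition subunit Orc6 was high in cells 14 and 19 (9.76 and 10.32). In all, 3 of 12 genes of the class that loads the helicase reached a difference of 1 log2 unit. The helicase activators Gins1, Gins2 and Gins4, subunits of the GINS complex, measured 10.74, 11.08 and 10.92 in cell 14 and stayed under the limit in the other MM cells. Gins2 was above it also in JG cell 8, at 7.73. The remaining GINS gene, Gins3, was under the limit in all 9 cells and measured 6.23 in cell 14. Cdc45, which joins GINS and the MCM ring, measured 10.44 in cell 14 and 8.80 in cell 19. In this class 4 of 15 genes reached a difference of 1 log2 unit.

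Among polymerase genes (6 of 12 past 1 log2 unit), Pold2, a subunit of the lagging strand polymerase, measured 11.39 and 11.03 in MM cells 14 and 19 and 6.78 to 7.42 in all other cells. The clamp loader gene Rfc3, whose product places PCNA on DNA, followed Pcna among MM cells: it measured 10.95, 12.13 and 11.75 in cells 14, 15 and 19 and 5.80 in cell 16. Unlike Pcna it was low in JG cell 6, at 6.23. Among the clamp loader and single-strand binding genes, 4 of 10 passed 1 log2 unit. The Okazaki fragment genes Fen1, a nuclease, and Lig1, a ligase, measured 10.38 and 9.94 in cell 14, 9.81 and 10.03 in cell 19, and 6.35 to 6.99 in all other cells. In that class 4 of 8 genes passed.

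For nucleotide supply 6 of 11 genes passed 1 log2 unit. Dut, the enzyme that keeps uracil out of DNA, was above background in all 4 MM cells (9.995, 10.89, 7.65 and 9.36) and in 0 JG cells. The thymidine kinase Tk1 was above background in all MM cells and in 4 of 5 JG cells. Cell 15, low in Rrm2 and Tyms, measured 11.79 for Tk1 and 12.50 for the nucleotide pyrophosphatase Dctpp1. Of the chromatin genes 2 of 8 passed, among them the histone chaperone Nasp (10.77, 9.45, 6.84 and 8.73 in MM cells 14, 15, 16 and 19, and no more than 6.10 in any JG cell). Of the S phase control genes 5 of 16 passed upward. The kinase gene Cdk4 measured 12.23 to 12.59 in all 4 MM cells, cell 16 included, and 6.48 to 7.27 in JG cells. The kinase gene Cdk2 was high in cells 14 (11.64) and 19 (9.09).

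**Figure D3:**
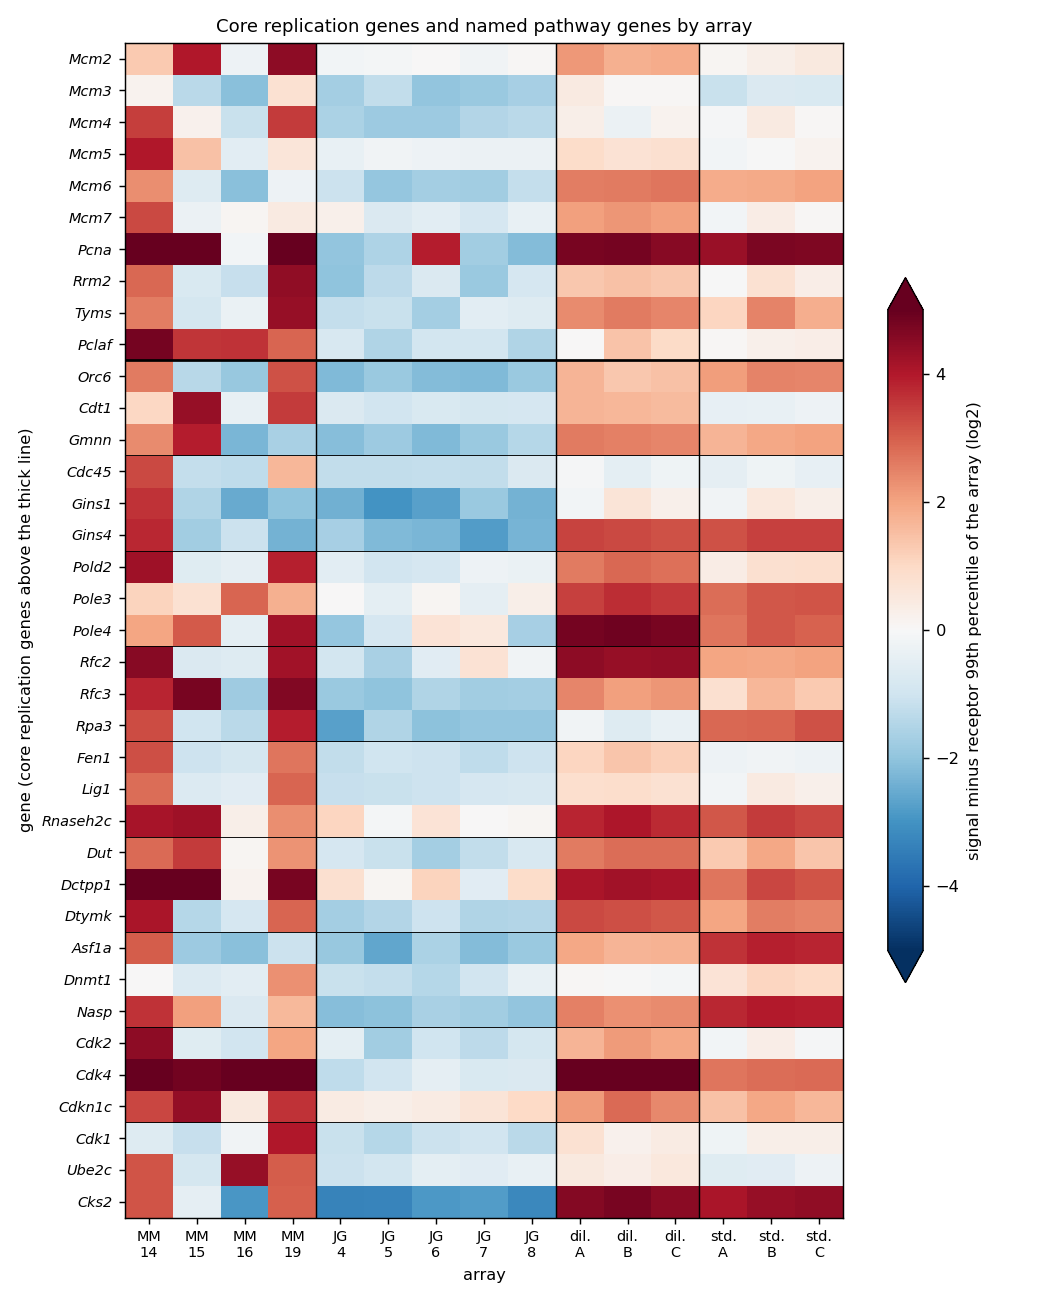
Signal minus the background limit of the same array (log2; red above, blue below, colours capped at 5) for the 10 core replication genes, above the thick line, and the named genes of each other class, below it, on the 15 arrays. MM cells 14 and 19 hold the most red among cells, MM cell 16 is strongly red for Cdk4, Pclaf, Pole3 and Ube2c, and JG cell 6 for Pcna.

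The mitosis genes were set beside the replication genes as another part of the cell cycle. Of 15 measured genes, 8, 1, 3 and 5 were above background in MM cells 14, 15, 16 and 19, and 2, 1, 1, 1 and 2 in JG cells 4 to 8. Of all genes 20.7%, 15.8%, 10.9% and 21.1% were above it in these MM cells. The mitosis list thus lay well over the share of all genes in cell 14. In MM cells 15, 16 and 19 its counts were within a few genes of that share, too few to tell apart from it. The mitotic kinase Cdk1 was high in MM cell 19 only (11.15). The ubiquitin conjugating enzyme Ube2c, which acts late in mitosis, was highest in cell 16 (11.90), the MM cell with the fewest replication genes above background. Ube2c was also high in cells 14 (10.27) and 19 (10.16). The proliferation marker Mki67 stayed under the limit in all 9 cells, at 5.91 to 7.02.

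**Figure D4:**
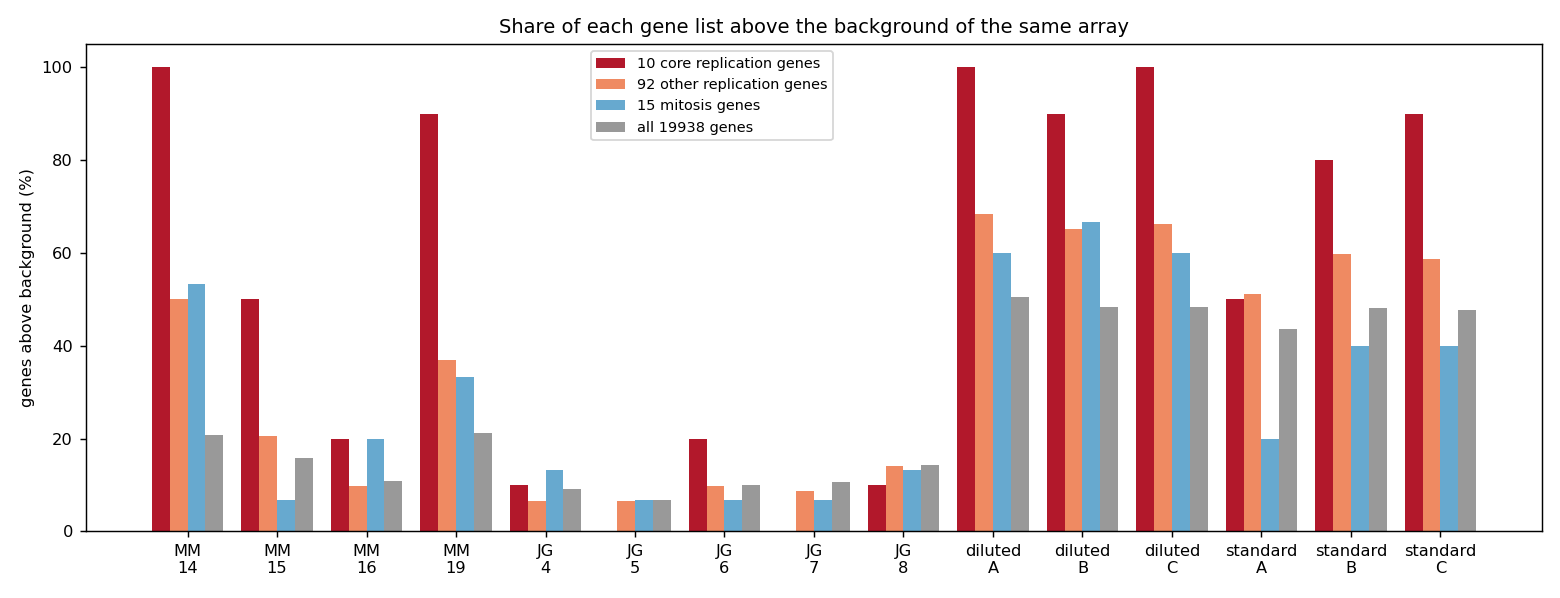
Percent of genes above the background limit of the same array (vertical axis) on the 15 arrays (horizontal axis) for the 10 core replication genes, 92 other replication genes, 15 mitosis genes and all genes. In MM cells 14 and 19 the replication genes exceed the share of all genes (20.7% and 21.1%), and in JG cells both stay at 20% or less.

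Genes with the pattern most like the mean of the 10 were taken by Pearson r over the 9 cells among 4683 genes above background in at least 2 of them. They were Ssbp3 (r = 0.99), Gap43 (0.99), Cks2 (0.99), Ppp4c (0.98) and Taf11 (0.98), of which Cks2, a cyclin-dependent kinase subunit, is on the mitosis list. Cks2 measured 10.31, 6.93, 4.64 and 10.12 in MM cells 14, 15, 16 and 19 and 4.33 to 4.89 in JG cells. The 9 points share a protocol, and the MM cells with the highest values also had the most genes above background.

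Adult cortex was compared between its labelling protocols with limma across all 35557 probe sets. Replication genes were mostly higher in diluted than in standard-labelled cortex: 6 of the 10 passed an adjusted p of 0.05, all of them higher in diluted cortex. Of all probe sets 50.3% were called, 21.6% higher and 28.7% lower. These shares include many dim probe sets. After a filter on dim ones, 13411 of 17779 were called, 7187 of them higher in diluted cortex. All 10 genes passed that filter and 6 were called, which is not over the share called there. After quantile normalization, 53.8% of all called probe sets were higher in diluted cortex, against 42.9% of them as deposited, and 6 of the 10 genes were called under both. In bulk tissue, fewer cells of a type and less RNA per cell cannot be told apart, and since nothing says that the libraries come from separate animals, the p-values speak only of how these 6 libraries scatter, and that scatter may be technical.

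Mcm7 measured 8.22, 8.48 and 8.36 in diluted and 6.38, 6.66 and 6.36 in standard-labelled libraries A, B and C. It differed by 1.89 ± 0.12 (SE, limma adjusted p = 6.09e-06). Mcm2 measured 8.35, 8.04 and 8.16 against 6.60, 6.59 and 6.78, a difference of 1.53 ± 0.11 (SE, limma adjusted p = 1.24e-05). For both genes the libraries of the 2 protocols lay apart by more than their spread. Mcm3 (0.93, limma adjusted p = 0.00025), Rrm2 (0.91, 0.00152), Mcm5 (0.69, 0.000359) and Mcm6 (0.57, 0.00198) were higher by less. Pcna was nearly equal, at 10.93, 11.07 and 10.86 against 10.84, 11.00 and 10.99, a difference of 0.01 ± 0.10 (SE, limma adjusted p = 0.959). Mcm4 (-0.21, limma adjusted p = 0.329), Pclaf (0.47, 0.277) and Tyms (0.55, 0.137) did not pass.

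Standard-labelled Tyms spread from 7.59 (library A) to 8.80 (library B), and without library B of that group the difference was 0.86 with a limma adjusted p of 0.00842. Pclaf measured 6.22 in diluted library A and 7.70 and 7.25 in B and C, and without diluted library A the difference was 0.89 with a limma adjusted p of 0.00254. Of the 92 other replication genes, 37 were called higher and 29 lower in diluted cortex. Of all probe sets, dim ones included, it was 21.6% and 28.7%. Rpa3, a single-strand binding subunit, fell by 3.49 in diluted relative to standard-labelled cortex (5.86 ± 0.20 against 9.35 ± 0.14, SD, n = 3 each; limma adjusted p = 4.57e-07), and Rfc2 rose by 2.30 (limma adjusted p = 6.58e-07), so genes of one class changed in both directions.

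Above background in cortex were most of these genes after dilution, and 5 to 9 of them after standard labelling. In diluted libraries A, B and C it was 10, 9 and 10 of the 10, where 50.5%, 48.3% and 48.4% of all genes were, and in standard-labelled ones 5, 8 and 9, where 43.7%, 48.2% and 47.8% were. All but Mcm4, 9 of the 10, were above it in every diluted library (45.9% of all genes), and Mcm2, Mcm6, Pcna, Tyms and Pclaf, 5 of the 10, in every standard-labelled one (42.7% of all genes). Set against diluted cortex, JG cells were lower by at least 1 log2 unit for 5 of the 10 genes, against 27.7% of all genes, and higher by as much for 0, against 32.8% of all genes. These shares depend on the reference: after centring each array on the receptors, 9 of the 10 genes were lower and 0 higher, against 41.2% and 0.512% of all genes. The receptors' median shift was 1.02 toward JG cells, and each of the 10 genes lay below that shift. Pcna differed by -3.93, Mcm6 by -2.67, Tyms by -2.03, Rrm2 by -1.27 and Mcm7 by -1.07. Without JG cell 6 the difference of Pcna was -5.08. JG values of these 5 genes, other than Pcna in cell 6 and Mcm7 in cell 4, lay under the limit of their arrays, so the differences are set against background signal.

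MM cells compared with diluted cortex gave a mixed picture. Pclaf (3.96), Mcm4 (2.51), Mcm5 (1.63), Mcm2 (1.51) and Rrm2 (1.01) were higher by at least 1 log2 unit, 5 of 10 genes against 17.2% of all genes. Mcm6 was lower by as much (-1.72), 1 of 10 against 24.8% of all genes. After centring on the receptors 2 of the 10 were higher and 2 lower, against 0.712% and 37.5% of all genes. Without centring, 3 of the 10 were higher without MM cell 14, against 20.2% of all genes. Without MM cell 19 it was also 3, against 19.7% of all genes. Receptors were 0.81 higher in MM cells, and relative to them the median of the 10 genes was -0.11 in place of 0.74, so the direction of the median depends on the reference. Single cells moved that median too: it was 0.29 without MM cell 14, 0.05 without cell 19 and 1.77 without cell 16, and -0.76 without both cells 14 and 19.

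The order of the 4 group means differed between genes. Mcm2, Mcm3, Mcm4, Mcm5, Pcna, Rrm2, Tyms and Pclaf had their highest mean in MM cells, and Mcm6 and Mcm7 in diluted cortex. For Mcm2, Mcm3, Pcna, Rrm2 and Tyms the MM mean exceeded that of diluted cortex by less than the SD over MM cells, and for Mcm5 it exceeded the JG mean by less than that SD. Pclaf and Mcm4 were the genes whose MM mean exceeded the next group by more than the larger SD. Mcm6 was lowest in JG cells (6.20 ± 0.30), with MM cells (7.14 ± 1.68) within 1 SD of both JG cells and standard-labelled cortex (8.30 ± 0.10, SD, n = 3).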

How the data were processed

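The authors deposited log2 signals of 35557 probe sets on 15 arrays, from 2.22 to 13.98 with 0 missing values. Per the submitters' processing notes, Affymetrix Expression Console produced them. Which version, summary method, normalization between arrays and genome build were used is not given in the sources used here. No further normalization was applied. Of 23410 probe sets in the platform annotation, 21789 carry 1 gene symbol and 1621 several, and 12147 more are unlisted. An array has no count depth, and the number of arrays limits the precision. The genes, the pathway list and the motifs were chosen with earlier results of these data known.

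Cell groups were compared as differences of means, with SDs over cells. Cortex was compared with limma 3.58.1 (lmFit and eBayes, R 4.3.3, no filter, Benjamini-Hochberg over all probe sets, threshold 0.05), tested on simulated data first. Named genes were all 10, up to 3 per class with the largest MM minus JG difference, genes above background in most MM cells and in 0 JG cells, the 5 most similar genes and the fixed markers; Gins2, Gins3, Tk1 and Mki67 were added after their values were seen. Python 3.11.15 with pandas 2.3.3 did the rest. Alternatives were other scalings, group medians, other probe sets, background limits, a block on the library letters and leaving out arrays. Some listed markers, Ren1 and Akr1b7 among them, were not analysed here.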

Additional observations from a re-analysis of the deposited data

Results flagged for a closer look

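Dixon's criterion for a value far from the rest of its group was met in 4 of the 20 groups tested (10 genes in MM and in JG cells). Chance flags about 1 in 20 only for independent groups of normally distributed values. The groups here share the same cells and many values lie at background, so the count is no measure against chance. Pcna in MM cell 16 was far below the other MM cells, at 7.44 against 12.64 to 12.81. Pcna in JG cell 6 was far above the other JG cells, at 11.64 against 5.40 to 6.39, and its second probe set measured 11.58 there. Mcm7 in MM cell 14 measured 10.45 against 7.12 to 7.64 in the other MM cells. Mcm3 in JG cell 5 measured 6.68 against 5.77 to 6.02 in the other JG cells, all of them under the background limit, which was 7.92 in JG cell 5.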

How the results depend on the processing

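The MM minus JG median of the 10 genes stayed positive in every setting run, from 0.35 (MM cells 14 and 19 left out together, a setting chosen after the data were seen) to 2.68. The JG minus diluted cortex median was -0.79, -1.84 after centring on the receptors, and -1.003 to -0.73 with 1 array left out, the lowest without diluted library A. Rrm2 turned from 1.01 to -1.12 in MM cells minus diluted cortex without MM cells 14 and 19, and the MM share above background was then 35.0%. The JG share above background was 38.0% at the receptors' 95th percentile and 2.0% at their maximum, where the MM share was 82.5% and 47.5%. With 1 JG cell left out the JG share was 5.0% to 10% (5.0% without JG cell 6), so values near the limit decide it. Shares of all genes at these other limits are not given here, so the percentages cannot be set against them. In cortex, 15408 to 18369 probe sets were called in settings that tested all of them and 13411 of 17779 after a filter on dim ones, and 6 or 7 of the 10 genes in each. With the library letters as a replicate block, 17547 probe sets and 7 of the 10 genes were called, Tyms joining at a limma adjusted p of 0.0493. Same-letter libraries correlated at 0.09, 0.07 and 0.02 in their deviations from the group means, and diluted library C correlated better with standard library B (0.04), so the letters were not taken to pair them. Over all settings, 524 values of single genes kept their call or moved by less than 1 SD over replicates, 22 moved by more, 3 newly passed the threshold and 1 reversed. For cell groups that SD was taken over the cells of the first group named, and it is wide for MM cells. A change of sign counted as reversed only where the reported difference was at least 1 log2 unit. Without MM cells 14 and 19, Tyms in MM cells minus diluted cortex went from 0.02 to -1.84 and still counted as unmoved. The tally is therefore no measure of stability. Array background limits what can be said of JG cells, where most of these genes gave no signal above it.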

Other observations

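The inhibitor gene Cdkn1b was high in JG cell 8, closer to the limit (7.70) in JG cell 7, and under the limit in all other cells. Its SD over the 5 JG cells was 3.24, so its mean there rests mainly on JG cell 8. The genes here were chosen after their values were seen. Cdkn1b, which encodes the inhibitor p27, measured 11.91 in JG cell 8 and 8.14 in JG cell 7, and 4.25 to 5.57 in all other cells. It was the one gene of the replication list with a MM minus JG difference below -1 (-1.82), and adult cortex held it at 8.65 ± 0.09 in diluted and 10.17 ± 0.05 in standard-labelled libraries (SD, n = 3 each). JG cell 8 also had the highest level of the cyclin gene Ccnd2 among the cells, at 10.22, against 9.84 in MM cell 19. Cdkn1c, which encodes the inhibitor p57, was above background in all 9 cells and measured 10.48, 11.80, 8.05 and 10.74 in MM cells 14, 15, 16 and 19, with a MM minus JG difference of 1.99. JG cells measured 8.12 to 8.54 for Cdkn1c. Being above background for Cdkn1c thus did not set apart the MM cells with many replication genes above it.

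Cenpa, the histone variant of centromeres, varied widely among single cells of both kinds. It measured 13.05, 8.94, 9.56, 11.63 and 7.32 in JG cells 4 to 8 and 10.20, 11.89, 7.88 and 11.93 in MM cells 14, 15, 16 and 19, and among the 9 cells it was under the limit in JG cell 8 only. It measured 7.37 ± 0.02 in diluted and 6.28 ± 0.26 in standard-labelled cortex (SD, n = 3 each). JG cells 4 and 7 had 1 and 0 of the 10 replication genes above background.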
